A study of Mus musculus and synthetic construct with 9 samples.

Results

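The elements described here are 200 bp human sequences around 11 SNPs that were strongly active in a massively parallel reporter assay (MPRA) in MIN6 cells, an insulin-producing line from a mouse β cell tumour. In the assay each sequence sits upstream of a minimal promoter and drives GFP mRNA with barcodes, and its MPRA activity is the abundance of its barcodes in mRNA relative to the transfected plasmid library. Cells in standard culture received the plasmid library of batch 1 and had no change of medium. Cells of the other conditions received batch 2, which was made from batch 1, and were given 0.025% DMSO or 250 nM thapsigargin (Tg) in 0.025% DMSO from 6 h after transfection. All cells were harvested at 30 h, which is 24 h of treatment. The study describes transfections on 5 separate days for each condition. Standard culture has 6 numbered RNA libraries, and 5 libraries of each condition are used here unless stated. MIN6 cells are one line, so the replicates share their cells and their plasmid library.

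The SNPs were chosen by their standard culture values alone. For each of the 13628 sequences, the log2 of summed RNA over summed plasmid counts was taken over the 5 libraries and centred on the median of all sequences with at least 500 plasmid counts. A SNP was a member when both of its alleles had at least 500 plasmid counts and lay above 2 and up to 4 on this scale, which is 4- to 16-fold over the median sequence. Of 6628 SNPs with both alleles, 6248 had enough plasmid counts, 51 had both alleles above 2, and 11 (22 sequences) also had both at or below 4. The band is thinly filled, since 39 SNPs had both alleles above 4 and 29 had both above 1 and up to 2. Among 12968 ranked sequences the 22 took places between 81 and 111. Just inside the upper threshold lay the reference allele of rs147257399 at 3.98. Just outside were rs61703483 (3.74 and 4.17 for the reference and alternate alleles) and rs12905951 (4.08 and 4.19). At the lower edge, the reference alleles of rs35741667 at 2.09 and rs62033403 at 2.10 were the nearest inside. Nearest outside were rs343093 (1.75 and 1.80) and rs28499105 (1.74 and 1.65). Standard culture levels and allelic differences therefore describe the choice and were not tested, while the DMSO and Tg libraries took no part in it.

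An enhancer-like sequence raises transcription from a promoter by binding transcription factors, and a SNP within it can strengthen or weaken a binding site. Tg blocks the calcium pump of the endoplasmic reticulum, and the loss of stored calcium disturbs protein folding and turns on the unfolded protein response. β cells, which secrete large amounts of insulin, are known to be sensitive to this stress.

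Positions on hg19 and alleles were at hand for 9 of the SNPs, on 6 chromosomes. The tables that give them list SNPs of type 2 diabetes (T2D) or glucose signals, and 9 of 11 are on the study's list of T2D SNPs with allelic effects, which was chosen on these same libraries. At HIGD1C, which encodes a mitochondrial protein of the HIG1 domain family, lie rs4768945 (chromosome 12, position 51356311, T to C) and rs73310020 (chromosome 12, position 51342467, G to A). The R3HDML and FITM2 signal holds rs1884610 (chromosome 20, position 42924356, C to T), between GDAP1L1 and FITM2, and the insertion rs35741667 (chromosome 20, position 42953808, A to AG). FITM2 is an endoplasmic reticulum protein needed for lipid droplets. The deletion rs147257399 (chromosome 3, position 64728255, CAA to C) belongs to the ADAMTS9-AS2 signal, named for an antisense RNA of a metalloproteinase gene. For rs11038694 the signal is that of CRY2, a repressor of the circadian clock. On chromosome 15, rs8037254 (position 91520099, A to G) is in an intron of the noncoding PRC1-AS1. The last, rs62033403 (chromosome 16, position 53822237, A to G), is in an intron of FTO, which encodes an RNA demethylase. No position is given here for rs11038694, rs11630689, rs2145245 and rs12683090.

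In standard culture the 11 SNPs spanned a range of levels. Their alleles lay 0.20 to 0.47 apart on the log2 scale for 7 SNPs and 0.01 to 0.13 apart for 4. Levels below are log2 RNA over mean plasmid counts in each library, centred on the median sequence, as mean ± SD (n = 5). Averaged over alleles, rs147257399 (3.94 ± 0.11) and rs4768945 (3.94 ± 0.14) stood highest and their libraries overlapped. Next were rs11038694 (3.39 ± 0.12), rs8037254 (3.38 ± 0.06) and rs2145245 (3.36 ± 0.13), which overlapped each other and lay below every library of the first pair. Then followed rs11630689 (2.83 ± 0.09), rs1884610 (2.72 ± 0.09), rs73310020 (2.60 ± 0.13) and rs12683090 (2.43 ± 0.07), each overlapping its neighbour in the order. The lowest were rs35741667 (2.25 ± 0.10) and rs62033403 (2.24 ± 0.15), which could not be ordered. RNA counts behind these values and those of DMSO and Tg were 1364 to 44345 per library, and plasmid counts 386 to 8609. The 22 sequences made up 0.700 to 0.766% of RNA counts in standard culture against 0.158 to 0.159% of plasmid counts. Whole RNA libraries held 19851799 to 30938393 counts in standard culture and 28896082 to 44899256 in the other conditions. The reads carry no molecular identifiers, so counting errors would cover counting only.

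RNA number 1 and plasmid number 6 of standard culture were not used in the choice of SNPs. Their ratio lay between 1.85 and 4.18 for the 22 sequences. It was above 2 for 21 of them, the exception being the reference allele of rs35741667 (1.85), and above 4 for 1, the reference allele of rs147257399 (4.18). Differences from the value used in the choice were -0.24 to 0.40, and the largest was for the reference allele of rs8037254 (3.68 against 3.28).

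All 22 sequences were MPRA active in DMSO and all 22 in Tg, where 19.8% and 12.8% of the 13413 sequences tested were active (edgeR, RNA against plasmid, FDR 1%). The rule took sequences far above the median in the same cells, so this count adds little to the choice. In DMSO the log2 fold change of RNA over plasmid ran from 1.72 for the reference allele of rs62033403 (SE 0.0614, edgeR adjusted p = 4.47e-14) to 3.93 for that of rs147257399 (SE 0.0466, adjusted p = 1.53e-41). In Tg the same sequences marked the ends, at 1.92 (SE 0.0429, adjusted p = 5.07e-24) and 4.13 (SE 0.0540, adjusted p = 8.25e-30). The order of the 22 was much the same in each condition. Spearman's rho across sequences was 0.949 for standard culture against DMSO, 0.940 for standard culture against Tg, and 0.966 for DMSO against Tg. These points share a plasmid library and include pairs of alleles, so they are not independent. In Tg, rs147257399, rs4768945 and rs2145245 held the first places without overlap of their libraries, at 3.91 ± 0.05, 3.61 ± 0.11 and 3.35 ± 0.10. In DMSO and in Tg, rs62033403 was lowest, at 1.84 ± 0.11 and 2.04 ± 0.05. Its libraries lay below those of the next SNP, rs12683090, in DMSO, but overlapped those of rs73310020 in Tg.

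Centred levels in DMSO were below those of standard culture for 21 of 22 sequences, with a median difference of -0.40 (range -0.67 to 0.03), beside 54.3% of all 13413 sequences and a median of -0.01. The alternate allele of rs4768945 went from 3.96 ± 0.14 in standard culture to 3.28 ± 0.14 in DMSO. The exception was the alternate allele of rs35741667, whose mean was 2.41 in standard culture and 2.43 in DMSO. The reference alleles of rs35741667 (-0.00662) and rs147257399 (-0.0395) had the smallest negative differences. The plasmid batch, the solvent, the change of medium and the number of PCR cycles differ together between these conditions. The members were also chosen for high standard culture values, which can by itself leave them lower in another condition. These cannot be told apart, and no test was made. SNPs with both alleles above 4 had a median of -0.49, and those above 1 and up to 2 a median of -0.24. Both bands were chosen on the same standard culture values.

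Most members were higher in Tg than in DMSO. Of the 22 sequences 16 (72.7%) rose and none fell, beside 2.04% that rose and 4.17% that fell of all 13413 tested (edgeR, Tg against DMSO RNA counts, FDR 1%). The rises were small, with log2 fold changes of 0.22 to 0.40, or 1.16- to 1.32-fold. The median over the 22 was 0.24, against 0.01 over all sequences. Both alleles rose for 7 SNPs, which were rs147257399, rs4768945, rs2145245, rs11630689, rs1884610, rs12683090 and rs62033403, and 1 allele for rs11038694 and rs8037254. Most sequences of the library were not active. Of the 2828 sequences active in DMSO or Tg, 8.91% rose and 19.6% fell. Rises were also common in the neighbouring bands, at 57 of 78 sequences of SNPs above 4 (none fell) and 25 of 58 of SNPs above 1 and up to 2, of which 12 fell. The difference between these bands was not tested.

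The scaling and the test bear on how many of these rises passed. The 10 sequences with the most counts took 20.2 to 22.8% of the RNA counts of a DMSO library and 23.3 to 25.6% of those of a Tg library. With libraries scaled by total counts only, which lowers the median over all sequences by 0.09 on the log2 scale, 7 of the 22 passed as higher in Tg and none as lower. Those 7 were the alternate allele of rs4768945 and both alleles of rs2145245, rs1884610 and rs12683090. On the ratio scale, with limma in place of edgeR, the 16 sequences had log2 fold changes of 0.20 to 0.39, against 0.22 to 0.40 in edgeR, but 1 passed (the alternate allele of rs1884610, adjusted p = 0.00882). The adjusted p of the others reached 0.169, and 15 passed when limma's variance was allowed to follow the RNA counts, an alternative chosen after seeing the data.

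The largest rise was at rs2145245. Its alternate allele had centred log2 ratios of 2.81, 2.67, 2.80, 2.88 and 2.99 in the DMSO libraries and 3.12, 3.10, 3.33, 3.32 and 3.20 in the Tg libraries. Every Tg library was above every DMSO library. The log2 fold change was 0.40 (SE 0.0642, edgeR adjusted p = 1.98e-06). Its reference allele had 3.15, 3.11, 3.18, 3.28 and 3.34 in DMSO and 3.34, 3.45, 3.58, 3.59 and 3.48 in Tg, a log2 fold change of 0.29 (SE 0.0647, adjusted p = 6.51e-04). Here the lowest Tg library and the highest DMSO library nearly met.

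At HIGD1C the SNPs of one signal differed in what was called. Both alleles of rs4768945 rose. The alternate allele went from 3.26, 3.08, 3.27, 3.39 and 3.43 in DMSO to 3.55, 3.49, 3.60, 3.65 and 3.79 in Tg, with no overlap (log2 fold change 0.34, SE 0.0610, edgeR adjusted p = 1.97e-05), and the reference allele had a log2 fold change of 0.29 (SE 0.0594, adjusted p = 2.72e-04). Neither allele of rs73310020, 13.8 kb away, passed. Its reference allele had 2.22, 2.12, 2.33, 2.29 and 2.18 in DMSO and 2.13, 2.12, 2.05, 2.15 and 2.23 in Tg (log2 fold change -0.08, SE 0.0544, adjusted p = 0.522). Its alternate allele had a log2 fold change of -0.03 (SE 0.0633, adjusted p = 0.877). DMSO and Tg libraries overlapped for both, and the difference between the responses of the SNPs was not tested.

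The R3HDML and FITM2 signal held a like pair. For rs1884610 the reference allele had 2.55, 2.28, 2.48, 2.45 and 2.41 in DMSO and 2.71, 2.65, 2.71, 2.83 and 2.71 in Tg, with no overlap (log2 fold change 0.30, SE 0.0555, edgeR adjusted p = 4.43e-05). The alternate allele had a log2 fold change of 0.33 (SE 0.0545, adjusted p = 5.15e-06). By contrast the alleles of rs35741667 had log2 fold changes of 0.09 (SE 0.0692, adjusted p = 0.595) and -0.01 (SE 0.0647, adjusted p = 0.967). The difference between the responses of rs1884610 and rs35741667 was not tested. The reference allele of rs35741667 was also the most variable in DMSO, with libraries from 1.80 to 2.27.

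Among the others, both alleles of rs12683090 had nearly the same rise, with log2 fold changes of 0.31 and 0.30 (SE 0.0623 and 0.0609, edgeR adjusted p = 1.93e-04 and 1.88e-04). At rs147257399 they were 0.22 and 0.23 (adjusted p = 0.00265 and 6.51e-04), and every Tg library exceeded every DMSO library for both. The FTO intron SNP rs62033403 had 0.22 and 0.22 (adjusted p = 0.00683 and 0.00172), and the libraries of its reference allele overlapped. For rs11630689 the alleles had 0.24 and 0.30 (adjusted p = 0.00471 and 0.00285). Single alleles passed at rs11038694, with 0.15 for the reference (adjusted p = 0.118) and 0.25 for the alternate (adjusted p = 0.00243), and at rs8037254, with 0.28 (adjusted p = 1.71e-04) and 0.17 (adjusted p = 0.0686). With the library number as a block in edgeR, which pairs DMSO and Tg libraries, the alternate allele of rs8037254 passed as well (0.17, SE 0.0445, adjusted p = 0.00616), which makes 17 of 22. Whether the alleles of these SNPs differ in their response is the question of the allelic test below, which called neither. On the centred scale the Tg libraries lay wholly above those of DMSO for 13 of 22 sequences and wholly below for none, beside 2.43% and 5.54% of all sequences tested.

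Allelic effects were found for 9 of the 11 SNPs in DMSO and for 9 in Tg, and both sets are the same SNPs with the same direction. Of all SNPs with at least 1 active allele, 43.0% of 1569 had an allelic effect in DMSO and 35.8% of 1059 in Tg (limma on log2 ratios, alternate less reference, FDR 10%). The alternate allele was higher for 5 (rs11038694, rs8037254, rs73310020, rs35741667 and rs62033403) and the reference allele for 4 (rs147257399, rs2145245, rs11630689 and rs1884610). The sizes were modest. In DMSO the median absolute difference of the 11 was 0.25 and the largest 0.55, or 1.46-fold, beside a median of 0.11 over all SNPs tested. As 9 of the 11 are on a list chosen for allelic effects in these libraries, these counts are not independent evidence. The list holds 8 of the 9 SNPs called here. It also holds rs4768945, which was called in neither condition, and it lacks rs2145245, which was called in both. The list is limited to T2D SNPs and takes an effect in any condition, including standard culture, which was not tested here. These differences are therefore not a comparison of like calls. When all 6501 SNPs were tested, with or without an active allele, 7 of the 11 passed in DMSO and 4 in Tg.

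The largest effect was at rs11630689, where the reference allele was the more active. Alternate minus reference differences were -0.58, -0.58, -0.41, -0.36 and -0.81 in DMSO and -0.79, -0.45, -0.25, -0.44 and -0.50 in Tg. All libraries had one sign, with a wide spread between them. The means were -0.55 ± 0.18 and -0.49 ± 0.20 (SD, n = 5 each, limma adjusted p = 4.53e-04 and 0.00264), and in standard culture -0.47 ± 0.04.

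For rs11038694 the alternate allele was the more active. The differences were 0.40, 0.35, 0.19, 0.36 and 0.33 in DMSO and 0.39, 0.48, 0.45, 0.49 and 0.36 in Tg, again of one sign throughout. The means were 0.33 ± 0.08 and 0.43 ± 0.06 (SD, n = 5 each, limma adjusted p = 7.05e-04 and 2.61e-04), and 0.42 ± 0.05 in standard culture.

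The deletion rs147257399 was the one SNP whose effect was much smaller in the standard culture libraries used for the choice than in the other conditions. Differences were -0.10, 0.00, -0.03, -0.14 and -0.12 in standard culture. They were -0.43, -0.47, -0.51, -0.45 and -0.51 in DMSO, and -0.53, -0.48, -0.40, -0.40 and -0.49 in Tg. These standard culture libraries did not overlap those of the other conditions. RNA number 1 over plasmid number 6, left out of the choice, had a wider gap, with 4.18 for the reference and 3.86 for the alternate allele. The choice also held both alleles at or below 4, and the reference allele lay at 3.98, which limits how far apart they could be in the libraries used. The means were -0.08 ± 0.06, -0.47 ± 0.04 and -0.46 ± 0.06 (SD, n = 5 each, limma adjusted p = 4.00e-05 in DMSO and 1.97e-04 in Tg). Its plasmid libraries had alternate minus reference log2 counts of -0.44 ± 0.25 in batch 1 and -0.28 ± 0.15 in batch 2, and a difference in RNA over plasmid carries that error into every library of a condition. In the RNA libraries alone, log2 counts of alternate minus reference ran from -0.57 to -0.44 in standard culture, -0.77 to -0.69 in DMSO and -0.79 to -0.66 in Tg. The plasmid batch and the conditions cannot be told apart, and the difference was not tested.

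At rs2145245 the reference allele was higher. The DMSO libraries differed by 0.38 ± 0.04 (limma adjusted p = 1.17e-04) and the Tg libraries by 0.27 ± 0.05 (adjusted p = 0.00233; mean ± SD over 5 libraries, as in the values that follow). For the insertion rs35741667 the alternate allele was higher by 0.34 ± 0.08 and 0.25 ± 0.09 (adjusted p = 4.82e-04 and 0.00760). The FTO intron SNP rs62033403 had 0.25 ± 0.10 and 0.26 ± 0.05 (adjusted p = 0.00401 and 0.00354). Smaller effects were those of rs8037254, with 0.24 ± 0.04 and 0.12 ± 0.04 (adjusted p = 0.00157 and 0.0644), rs73310020, with 0.13 ± 0.06 and 0.17 ± 0.08 (adjusted p = 0.0353 and 0.0318), and rs1884610, with -0.15 ± 0.10 and -0.12 ± 0.08 (adjusted p = 0.0373 and 0.0995). All 5 libraries had the same sign for each of these in each condition. The Tg calls of rs1884610 and rs8037254 were lost under 9 and 6 of 11 alternatives, with adjusted p of 0.0845 to 0.427 and 0.0209 to 0.375. The DMSO calls of rs73310020 and rs1884610 were lost under 4 and 3 of 11, with adjusted p of 0.0122 to 0.214 and 0.0234 to 0.179. In DMSO the difference at rs73310020 was 0.08 in the first sequencing run alone (adjusted p = 0.214) and 0.17 in the second (adjusted p = 0.0122), and without DMSO replicate 5 it did not pass (0.11, adjusted p = 0.106). That of rs1884610 did not pass without DMSO replicate 3 (-0.11, adjusted p = 0.112). The plasmid counts carry an error of their own. The standard error of the plasmid difference between alleles was 0.04 for rs1884610 and 0.04 for rs73310020 in batch 2, so their effects were 3.01 to 4.66 times that error, while those of the other called SNPs were 4.66 to 12.8 times it.

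No allelic effect was called at rs4768945 or rs12683090, the SNPs of nearly equal alleles. For rs12683090 the difference was 0.00 in DMSO (limma, 95% interval -0.08 to 0.07, adjusted p = 0.943) and -0.01 in Tg (-0.10 to 0.08, adjusted p = 0.870). It had the most plasmid counts of the members and the tightest libraries, from -0.04 to 0.03 in DMSO. For rs4768945 the difference was -0.05 in DMSO (-0.15 to 0.06, adjusted p = 0.456) and 0.01 in Tg (-0.08 to 0.11, adjusted p = 0.819). An effect of the size seen at rs11630689 lies outside these intervals. Smaller effects do not, since the DMSO difference called at rs1884610 (-0.147) is within the DMSO interval of rs4768945 (lower end -0.151). The intervals leave out the error of the plasmid counts, which all libraries of a condition share.

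No change of an allelic effect between DMSO and Tg was called for the members, and such calls were rare among all SNPs tested. Of the 11 SNPs 0 passed the test of the difference between Tg and DMSO, beside 3.83% of 1670 SNPs tested (limma, FDR 10%; 64 SNPs, and 10 with the libraries paired by number), and 1 had an unadjusted p under 0.05. That SNP was rs8037254, whose effect was lower in Tg by 0.12 on the log2 scale (SE 0.0489, 95% interval -0.22 to -0.01, adjusted p = 0.324). For the other 10 the Tg minus DMSO difference was between -0.10 and 0.11. Their 95% intervals were narrowest at rs12683090 (-0.11 to 0.09) and widest at rs11630689 (-0.17 to 0.30). A change within the interval of its own SNP remains possible.

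Most other SNPs near the members had ratios close to that of the median sequence. The study describes sequences with flanks of equal length on each side of the SNP. By position, rs67654320 lies 148 bases from rs4768945, and by this design would share 52 of its 200 bases. Its alleles had pooled ratios of 0.00 and 0.09 in standard culture. By the same design rs73090666 would share 9 bases with rs4768945 (0.01 and 0.06), and rs12594925 would share 12 with rs8037254 (0.18 and 0.14). A sequence 380 bases away from rs4768945, that of rs12315928, had 5.90 and 5.77. It shares no base with it by position and was picked after its values were seen. Among the 40 other SNPs of the HIGD1C signal with enough plasmid counts, the higher allele exceeded 1 for 3 and 2 for 2, with a median of 0.05. In the R3HDML and FITM2 signal 1 of 27 other SNPs exceeded 2, and in the PRC1 and ADAMTS9-AS2 signals none of 28 and none of 6. At FTO the list holds 2 others, of which rs9937709, also picked after its values were seen, had 5.67.

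The SNP rs62033403 was also measured in a second background, marked as alternate in the sequence names and called a haplotype here. What differs between this background and the usual one is not given here. In standard culture this haplotype had 2.33 ± 0.14 with the reference and 2.59 ± 0.11 with the alternate allele, above the usual background (2.10 ± 0.14 and 2.38 ± 0.16). The gap between backgrounds was 0.23 ± 0.04 and 0.22 ± 0.07. In DMSO the haplotype sequences had 1.84 ± 0.13 and 2.13 ± 0.09, and in Tg 2.12 ± 0.06 and 2.41 ± 0.08. The allelic difference in this background, as mean ± SD (n = 5), was 0.26 ± 0.04 for standard culture, 0.29 ± 0.07 for DMSO and 0.29 ± 0.08 for Tg. In the usual background it was 0.27 ± 0.04, 0.25 ± 0.10 and 0.26 ± 0.05, so the ranges of the backgrounds overlapped. These haplotype values are given without a test.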

How the data were processed

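Counts per sequence and library were deposited by the authors as sums of barcode reads, after barcodes shared between sequences had been discarded. DESeq2, with no version, is in the submitters' processing notes. No barcode counting program is named in the sources used here. The standard culture table holds 6 RNA and 6 plasmid numbers, and 3 RNA numbers have a second column that differed from the first by about sampling noise (chi-square per degree of freedom 1.03 to 1.07, against 4.38 to 7.43 for 3 pairs of different numbers), so each pair is 1 library. RNA numbers 2, 3, 4, 5 and 6 (the second column for 4 and 6) and plasmid numbers 1 to 5 were used. The A sequences hold the reference allele, checked for 1117 of 1117 SNPs against the study's mean counts (relative difference under 0.001). For DMSO, Tg and their plasmid libraries the 2 sequencing runs were summed.

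Sequences whose plasmid counts averaged 10 or more (13413, all 22 members included) were tested with edgeR 4.0.16 (quasi-likelihood, TMM, robust) at an FDR of 1%. Allelic differences used limma 3.58.1 with a pseudocount of 1 and mean plasmid counts, for SNPs with at least 1 active allele, at an FDR of 10%. Tests were two-sided, with Benjamini-Hochberg adjustment over all sequences or SNPs tested. DESeq2 1.42.0 and R 4.3.3 were used for alternatives, and Python 3.11.15 for tables. The scripts were tested on simulated data. Every SNP found by the rule is named, with the 2 nearest outside each threshold, SNPs with overlapping sequence and haplotypes. Members and lists were chosen with earlier results of these data known. Alternatives changed scaling, tool, filters, run, pseudocount, plasmid values, SNPs tested, blocks and replicates. Positions are from the study's tables. Sequence stretches and the annotation of some SNPs are not reported here. The genome at hand is mouse and was not used for these human sequences. All per-sample columns were mapped. The study calls the DMSO and Tg experiments paired. Same-numbered libraries had correlations of their deviations from the group means of -0.0401 to 0.00418 over 12847 sequences, most of them not active. They were 0.123 to 0.380 over the 199 with a standard culture ratio above 1, a subset chosen after seeing the data. Over the 22 member sequences they were 0.141 to 0.719. Libraries of different numbers also correlated. In the 199, Tg number 1 had 0.379 with its own DMSO number and 0.469 with another. In the members, Tg number 3 had 0.141 with its own and 0.527 with another. The remaining numbers in these sets correlated most with their own, while over the 12847 sequences no number did. Fits with the number as a block are therefore given where they change a call.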

Additional observations from a re-analysis of the deposited data

Results flagged for a closer look

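Among 99 sets of 5 library values (22 levels and 11 allelic differences in each of 3 conditions), 1 had a library far from the other 4, where chance alone would flag about 1 in 20. In DMSO the alternate allele of rs73310020 had a centred log2 ratio of 2.16 in library 2, against 2.37 to 2.42 in the others. Without DMSO replicate 2 both alleles of this SNP still did not pass as different between Tg and DMSO.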

How the results depend on the processing

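All 22 member sequences stayed active in DMSO and in Tg under every alternative run, leave-one-out included. The number of member SNPs was 10 over all RNA and plasmid numbers and 10 to 11 without 1 of the RNA libraries, where rs147257399 went above the upper threshold without replicate 3, and 11 with other plasmid minimums and with TMM scaling. Member sequences higher in Tg numbered 7 with libraries scaled by total counts only, 1 with limma on the ratio scale, 15 with limma and a variance trend, 14 to 15 in single runs, 16 with DESeq2 and 12 to 15 without 1 library. The cause of the drop to 1 was not tested. No member sequence was lower in Tg under any alternative, DESeq2 included, and over all of them 1 fold change below 0 had an unadjusted p under 0.05. That was rs73310020 reference with total counts only, where the log2 fold change was -0.166 (edgeR adjusted p = 0.0416). The member SNPs with allelic effects in Tg numbered 4 when all SNPs were tested, and otherwise 7 to 9 (7 to 8 without 1 library), and those in DMSO 7 to 9 (8 to 9 without 1 library). The count of member SNPs whose allelic effect differs was 0 under every alternative.

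With a replicate block, which pairs DMSO and Tg libraries by number, 17 sequences were higher in Tg and 0 lower, and 0 allelic effects differed. The block added the alternate allele of rs8037254 (adjusted p = 0.00616) and changed no other call of a member.

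Directions turned only for values near 0 that had not passed. Tg against DMSO, it turned for rs35741667 reference with total counts (-0.00565), for rs35741667 alternate with run 1 only (0.000290) and without 1 library (range -0.0591 to 0.0456), and for rs73310020 alternate without Tg replicate 3 (range without 1 library -0.0727 to 0.00412). The allelic effect of rs12683090 turned with run 1 only (0.0163 in DMSO, 0.00499 in Tg), with the plasmid library of the same number (0.000605 in DMSO) and without DMSO replicate 1 (range in DMSO -0.0113 to 0.00479), and that of rs4768945 in Tg with run 1 only (-0.00953). The Tg minus DMSO difference turned for rs147257399 with run 1 only (-0.00229) and, without 1 library, for rs11630689 (-0.00332 to 0.138), rs1884610 (-0.00636 to 0.0512), rs12683090 (-0.0146 to 0.00146) and rs62033403 (-0.0232 to 0.0314). Plasmid counts limit the smallest effects, since all libraries of a condition share the plasmid error.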
